A study of Homo sapiens with 3 samples.

Results

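Cytosolic ribosomal protein genes encode the protein parts of the ribosome that works outside mitochondria. They were taken here as the protein-coding genes of a RefSeq gene table (GRCh38.p14) on chromosomes 1 to 22 and X whose symbols follow the pattern of RPS, RPL or RPLP, a number and an optional A or X. This gave 76 of 19970 protein-coding genes: 30 of the small subunit, 43 of the large subunit and 3 of the stalk. The material was hCMEC/D3, an immortalized human brain microvascular endothelial line, grown to confluence on rat tail collagen and used at passages 4 to 6, with no second genotype, treatment or time. It is 1 line, so nothing below compares conditions. The measurement was ATAC-seq, in which the Tn5 transposase cuts and tags open chromatin, in 1 library that left 22188172 tags and 106415 broad peaks. The 2 RNA libraries of the series were not used, because no table used here ties their transcript identifiers to genes. Peaks were found at a gene end for all 14 endothelial markers examined, for 3 of 5 blood cell markers, for all 4 mural markers, for 2 of 3 epithelial markers and for 4 of 5 neuronal or glial markers, so a peak at an end did not by itself mark a cell type.

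A ribosome needs its proteins in nearly equal amounts, and every growing cell makes them in bulk. Their mRNAs are known as TOP mRNAs because they begin with a C followed by a terminal oligopyrimidine tract, a short run of C and T in the DNA, through which mTOR signalling controls their translation. Their promoters are usually short, rich in CpG and active in all tissues, and many of the genes carry small nucleolar RNAs (snoRNAs), guides for the modification of ribosomal RNA, in their introns.

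Every ribosomal protein gene had accessible chromatin at an end. A peak within 1 kb of either end of the gene, here called an end peak, was called for 76 of 76 genes (100%, 95% Wilson interval 95.2% to 100%), against 73.1% of all protein-coding genes. The genes are short, with a median length of 4905 bp against 24336 bp for the other 19894 protein-coding genes, and an end peak was less frequent among short genes. When the other genes were weighted to the same spread over 10 groups of gene length, 63.9% had one. At windows of 500 and 2500 bp, at a −log10 q of at least 5 and at an overlap of at least 200 bp, all 76 genes kept an end peak, while the other protein-coding genes ranged from 66.8% to 79.4%. Restricting the list to peaks of at least 4-fold left 64 of 76 genes (84.2%), against 56.1% of the others, and the 12 that dropped out were RPL3, RPL7, RPL7A, RPL8, RPL10, RPL12, RPL13, RPL19, RPL36, RPLP2, RPS2 and RPS29. With 1 library, no test between groups was possible, and these intervals run over genes, which are not replicates.

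The strength of the peaks was moderate. For each gene the end peak of highest pileup stood for the gene. The pileup is the authors' deposited signal of extended tags for a whole broad peak. It carries decimals, so it was not read as a count or as the height of a summit. In a bulk library, a site open in more cells and a site cut more often per cell cannot be told apart. The pileup had a median of 53.4 tags (95% interval from order statistics 50.03 to 58.5) and quartiles of 45.5 and 65.5, and was lowest at RPL38 with 28.5 tags. The median of the other genes with an end peak was 45.8 tags after weighting for gene length, and 56 of the 76 genes lay above it. The upper 10% of protein-coding genes began at 74.2 tags, and 8 ribosomal protein genes reached it. Peak width differed little, with a median of 992 bp (interval 905 to 1047) against a length-weighted 999 bp. The median fold over local background was 5.14 (interval 4.90 to 5.67), against 4.71. The local background, here and below the pileup divided by the fold and so an approximation, had a median of 10.2 tags, against 9.09.

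**Figure D1:**
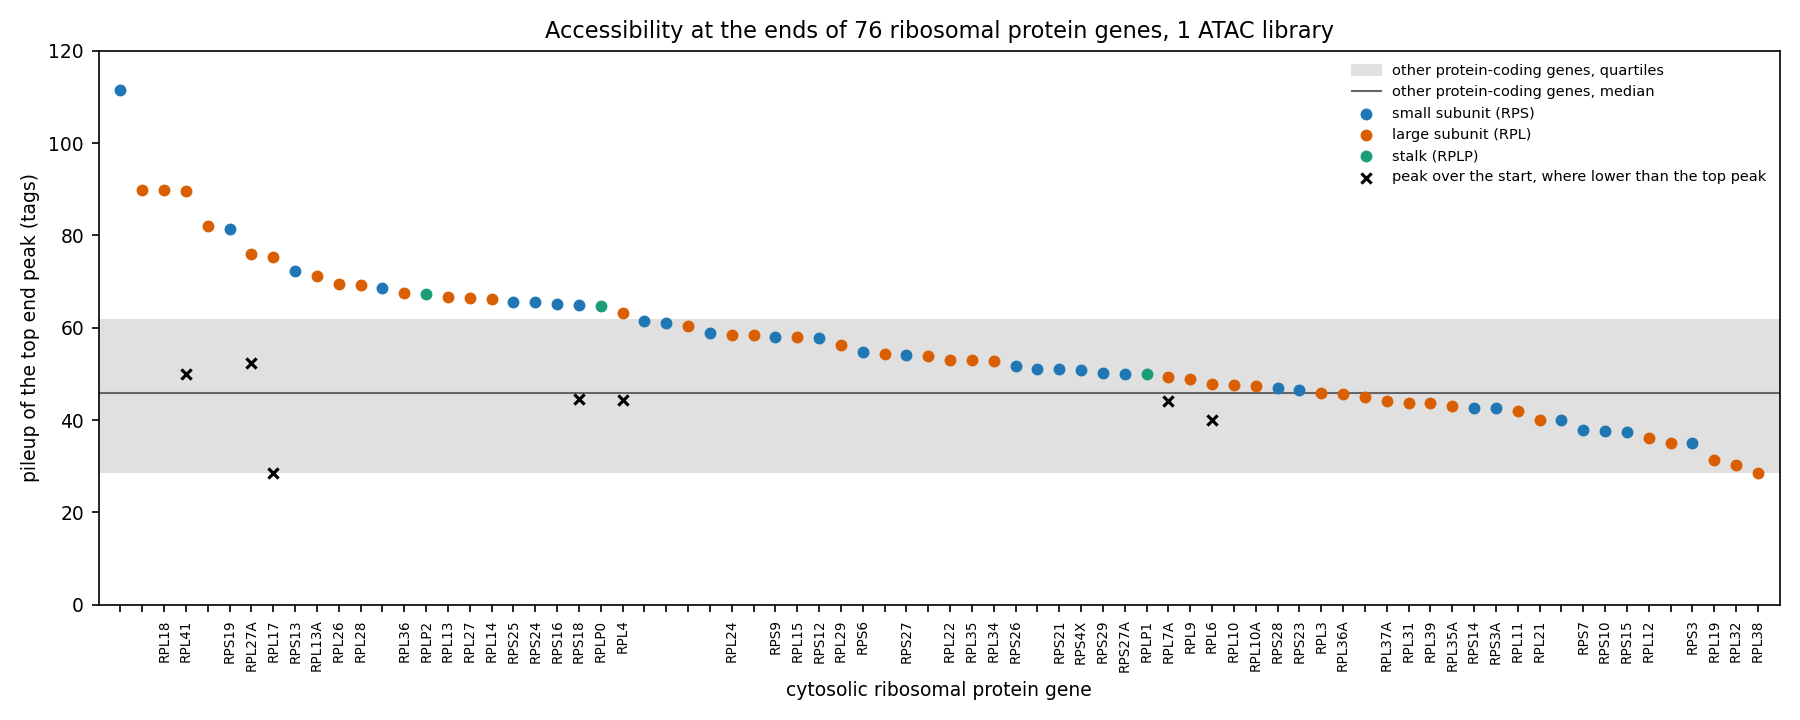
Pileup of the top end peak, in tags, for each of the 76 genes in descending order. Colours give the subunit, the grey band and line give the quartiles and median of other protein-coding genes weighted for gene length, and crosses give the peak over the annotated start for the 7 genes where another peak was higher. Names are given for the 61 genes with a listed start. Of the 76 genes, 56 lie above the grey line.

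Among proteins of the small subunit, which reads the mRNA, the median pileup was 52.9 tags over 30 genes, with quartiles of 46.7 and 64.1. RPS19, the gene most often mutated in Diamond-Blackfan anaemia, had 3 end peaks, and the one over its start (chr19:41859472-41860530) reached 81.3 tags and a fold of 6.96. RPS14, whose reduced dosage underlies the anaemia of a myelodysplastic syndrome, also had 3, with 42.6 tags over the start and 13.1 and 12.6 tags at the far end. RPS15A was the other small-subunit gene with 3 end peaks, of 51.0, 12.3 and 10.2 tags. RPS6, the substrate of S6 kinase, had 54.8 tags, and RPS27A, which is made as a fusion with ubiquitin, had 50.04. RPS3, which lines the mRNA entry channel, was the lowest of the subunit at 35.0 tags, in a wide peak of 1850 bp. RPS20 had the highest fold of all 76 genes, 7.74, at 61.5 tags over a local background of 7.94. RPS16 and RPS27 had narrow top peaks of 480 and 570 bp with 65.1 and 54.1 tags, whereas the peak of RPS29 was 1854 bp wide with 50.2 tags and lay also at an end of LRR1.

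The large subunit holds the peptidyl transferase centre and the exit tunnel. Genes for its proteins had nearly the same median, 53.1 tags over 43 genes, with quartiles of 44.5 and 66.6. RPL18 had 89.7 tags and RPL41, which encodes the shortest ribosomal protein, had 89.6. RPL23A, at the exit of the tunnel, followed with 82.0 tags. The peaks of RPL18, RPL41 and RPL23A each lay also at an end of another protein-coding gene, and that of RPL41 lay at its far end. At the low end were RPL38 with 28.5 tags, RPL32 with 30.4, RPL19 with 31.5, RPL23 with 35.1 and RPL12, which sits at the base of the stalk, with 36.2. RPL5 and RPL11, which bind MDM2 when ribosome assembly is disturbed, had 53.8 and 41.9 tags, with folds of 7.62 and 6.01. RPL22 had 53.1 tags and RPL34 52.9, with folds of 6.70 and 7.58. The lowest fold was 2.96, at RPL3, a protein near the catalytic centre, where 45.9 tags stood on a local background of 15.5. RPL12 and RPL13 followed with folds of 3.13 and 3.24, the latter at 66.7 tags over a background of 20.6. RPL3 and RPL13 thus paired a low fold with a high local background, and RPL12 with a low pileup. The widest top peaks were 2279 bp at RPL7, 2157 bp at RPL12 and 1944 bp at RPL10, and the narrowest were 282 bp at RPL7A and 445 bp at RPL29. Those of RPL7, RPL12 and RPL7A lay also at an end of another protein-coding gene.

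The 3 stalk proteins, which recruit translation factors to the ribosome, had 67.4 tags at RPLP2, 64.8 at RPLP0 and 50.03 at RPLP1. Their folds were 3.94, 4.79 and 4.34, each below the median of the 76 genes. All 4 genes on chromosome X had an end peak. RPS4X, a gene that escapes X inactivation, had 50.9 tags, RPL10 47.7, RPL36A 45.7 and RPL39, a small protein of the exit tunnel, 43.7. The other genes of chromosome X with an end peak had a median of 33.8 tags (n = 455). Chromosome 19 held 12 of the 76 genes, with a median of 69.0 tags and quartiles of 63.3 and 83.4, against 47.8 tags for the other genes of that chromosome with an end peak (n = 1057). DNA copy number of the line enters the pileup, and its part was not tested.

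**Figure D2:**
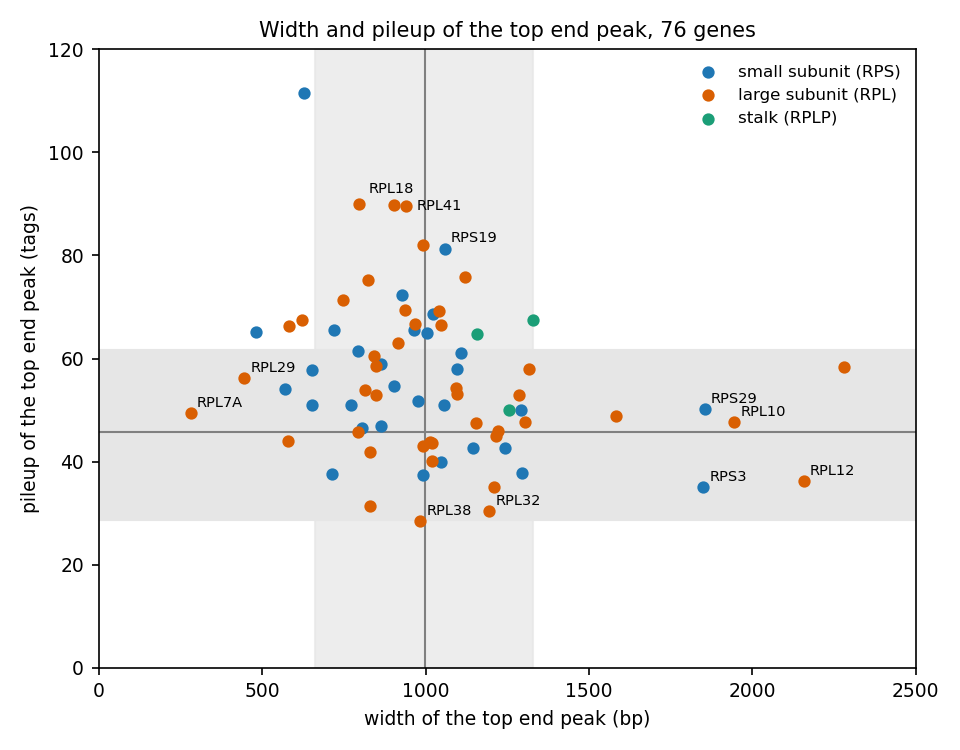
Width in bp against pileup in tags of the top end peak of each of the 76 genes, coloured by subunit, with the quartiles (grey bands) and medians (lines) of other protein-coding genes weighted for gene length. Names are given for some genes at the edges that have a listed start, and the widest peaks, at RPL7, RPL12, RPL10, RPS29 and RPS3, have 35.0 to 58.4 tags.

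Width and pileup did not rise together among these genes. Across the 76 genes Spearman's rho of pileup and width was -0.27, compared with 0.36 across the other 14515 genes with an end peak. For pileup and local background rho was 0.69 across the 76 genes and 0.82 across the others. That background is computed from the pileup, so a positive rho is partly built in and is not read as a result. These values of rho are descriptions across genes of 1 library, which share its depth. How far the pileup of a broad peak depends on its width was not tested.

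More than 1 end peak was common in the deposited list, though some of the additional peaks were weak. Of the 76 genes, 45 had 1, 27 had 2 and 4 had 3 (RPL10, RPS14, RPS15A and RPS19), so 31 (40.8%, Wilson interval 30.4% to 52.0%) had 2 or more, against 18.0% of all protein-coding genes, a share that counts genes with no peak. Among the other genes that had any end peak it was 24.5%, and 27.8% after weighting for length. The mean number was 1.46 per gene, against 0.842 for other genes weighted for length. The latter mean also counts genes with no end peak, so it partly restates the share with any. At a −log10 q of at least 5 the mean fell to 1.21 per gene, against 0.794 for other genes without weighting. The additional peaks of RPL10, RPS14 and RPS15A had a −log10 q of 1.43 to 2.52, and those of RPS19 had 2.88 and 16.4. None of these 4 genes thus kept 3 end peaks at that limit. In the full list, the median pileup was 60.4 tags where 2 or more end peaks were called and 50.9 tags where 1 was. The corresponding length-weighted medians of other genes were 52.3 and 43.2 tags.

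The annotated start told the ends apart. RefSeq starts and strand were available for 61 of the 76 genes in the table used, and the other 15 do not enter the counts on starts. A peak covered a listed start of 61 of 61 genes (100%, Wilson interval 94.1% to 100%), against 68.8% of the 15812 protein-coding genes in the table and 54.4% of the other genes weighted for length. A peak at the far end of the gene was called for 24 of 61 (39.3%), against 19.2% of the genes in the table. Among the other genes weighted for length it was 22.9%. Both shares count genes with no end peak. Away from the ends, 7 of the 76 genes (9.21%) held a peak, against 56.0% of all protein-coding genes and 18.8% after weighting for length.

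At 6 genes the highest end peak lay at the far end, and at 5 of them it also lay at an end of a neighbouring protein-coding gene. At RPL41 the far peak (chr12:56117858-56118798, also at ZC3H10) had 89.6 tags and the peak over the start (chr12:56116004-56116721) had 50. At RPL17 they had 75.3 tags (also at C18orf32) and 28.5 tags. For RPS18 the values were 64.9 (also at B3GALT4) and 44.5, for RPL4 63.1 (also at SNAPC5) and 44.3, and for RPL7A 49.4 (also at SURF1) and 44.2. RPL27A had 75.9 tags at its far end, shared with no other protein-coding gene, and 52.4 over its start. The narrow top peak of RPL7A was such a far peak, and the peak over its start was 1835 bp wide. In all, the top peak of 25 of the 76 genes (32.9%) lay also at an end of another protein-coding gene, against 28.8% of all protein-coding genes that had one and 37.9% of the others that had one, weighted for length. Among those pairs were RPL18 with SPHK2, RPL13A with FLT3LG, RPLP2 with PIDD1, RPL9 with LIAS and RPL5 with DIPK1A. The median pileup was 53.8 tags for genes that shared the peak and 53.1 for those that did not, while among other genes it was 53.3 and 42.3.

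Measured at the start alone, the ribosomal protein genes did not stand higher than other genes with an open start. The peak over the start had a median of 50.04 tags (interval 45.9 to 53.1), and the other 10824 genes with a covered start had 48.2, or 50.1 after weighting for length. The top end peaks of the 61 genes with a listed start had a median of 51.7 tags, against a length-weighted 47.8, and those of the 15 genes without one had 59.0, against 38.6. The highest peaks over a start were at RPL18 (89.7 tags), RPS19 (81.3) and RPS13 (72.3), and the lowest were at RPL17 and RPL38 (28.5 each).

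The peaks over these starts reached further upstream than downstream. The median peak extended 573 bp before the start (interval 499 to 619) and 386 bp after it (352 to 477), compared with 479 and 516 bp in other genes weighted for length. It reached further before than after the start in 42 of 61 genes (68.9%, Wilson interval 56.4% to 79.1%), against 44.3% of other genes with a covered start. At RPL26 the peak ran 832 bp before and 105 bp after the start, at RPL28 902 and 138 bp, and at RPL13A 608 and 139 bp. RPS3 was an exception, with 247 and 1602 bp. The median width over the start was 992 bp, against 1104 bp in other genes weighted for length.

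**Figure D3:**
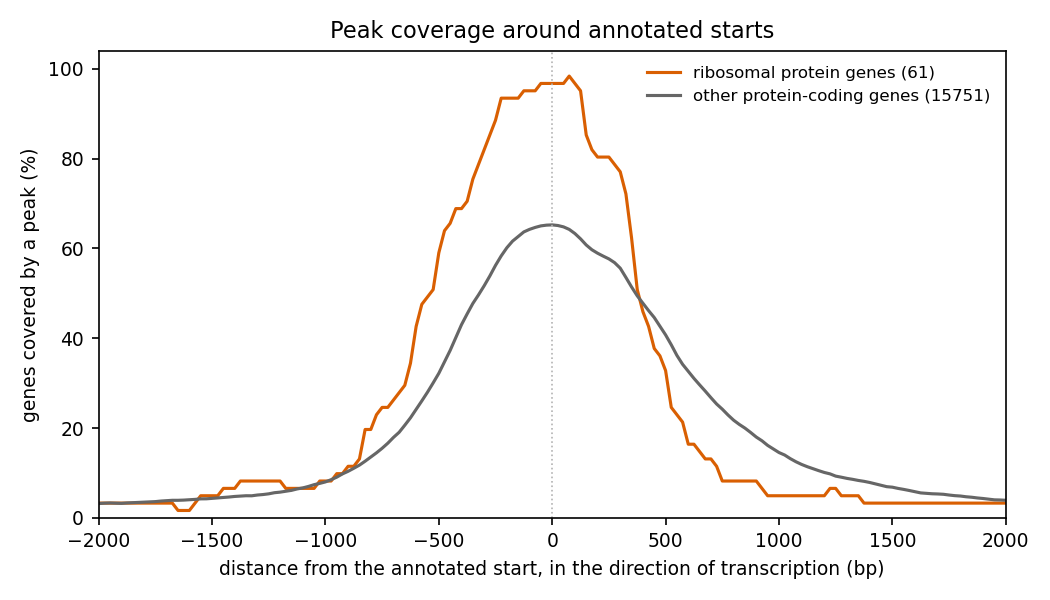
Share of genes covered by a peak, in percent, at each distance in bp from the outermost annotated start in the direction of transcription, for 61 ribosomal protein genes and 15751 other protein-coding genes. At the start the shares are 96.7% and 65.2%, and 600 bp downstream they are 16.4% and 32.6%, so the curves cross.

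The sequences under these peaks carried the oligopyrimidine start. A start was counted as such where the annotated first base was a C followed by at least 4 pyrimidines on the sense strand. This held for a listed start of 45 of 61 genes (73.8%, Wilson interval 61.6% to 83.2%), against 5.98% of the 15751 other genes and 6.31% of the other genes with a peak over a start. The pyrimidine run had a median of 8 bases and ran from 5 to 19. At the 962 such starts of other genes the median was 7 bases, with a range of 5 to 33. The sequences below show it for genes named above, from 30 bases before to 20 bases from the start, in RefSeq GRCh38.p14, 5′ to 3′ on the gene's strand. Capitals mark the pyrimidine run that begins at the first transcribed base.
RPLP0, chr12:120201092-120201141, minus strand: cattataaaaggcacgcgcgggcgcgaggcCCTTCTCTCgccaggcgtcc
RPS3, chr11:75399488-75399537, plus strand: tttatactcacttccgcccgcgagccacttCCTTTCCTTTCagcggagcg
RPS6, chr9:19380217-19380266, minus strand: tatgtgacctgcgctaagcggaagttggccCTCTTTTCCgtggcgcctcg
RPS13, chr11:17077648-17077697, minus strand: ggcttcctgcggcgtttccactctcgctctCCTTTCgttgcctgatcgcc
RPS14, chr5:150449720-150449769, minus strand: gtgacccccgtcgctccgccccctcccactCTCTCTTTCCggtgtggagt
RPS19, chr19:41860225-41860274, plus strand: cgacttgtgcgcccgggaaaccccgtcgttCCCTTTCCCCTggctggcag
RPL11, chr1:23691776-23691825, plus strand: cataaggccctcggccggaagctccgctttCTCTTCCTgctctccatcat
RPL18, chr19:48619159-48619208, minus strand: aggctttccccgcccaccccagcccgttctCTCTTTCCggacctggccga
RPL38, chr17:74203648-74203697, plus strand: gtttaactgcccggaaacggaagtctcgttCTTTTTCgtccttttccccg
RPL39, chrX:119791611-119791660, minus strand: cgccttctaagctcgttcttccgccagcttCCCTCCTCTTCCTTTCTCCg
RPL41, chr12:56116603-56116652, plus strand: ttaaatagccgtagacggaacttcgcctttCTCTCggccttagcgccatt

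The runs differ in length and in the order of C and T, from CTCTC at RPL41 to the run of 19 bases at RPL39. They occurred at starts of high pileup (RPL18, RPS19, RPS13) and of low pileup (RPL38, RPS3). The 45 genes with such a start had a median top pileup of 54.1 tags (interval 49.4 to 64.9) and the 16 without had 48.3 (37.9 to 57.9), intervals that overlap. Those 16 were RPL3, RPL4, RPL6, RPL9, RPL10A, RPL15, RPL17, RPL19, RPL27, RPL32, RPS4X, RPS7, RPS15, RPS26, RPS28 and RPS29. When the C and its pyrimidines could begin anywhere from 10 bases before to 10 bases after the annotated start, 56 of 61 genes had them (91.8%), against 40.9% of other genes. The 5 without were RPL6, RPL17, RPL27, RPS4X and RPS29. The next sequences show starts that were not counted, with the annotated first base in capitals, because they show how close a pyrimidine run can lie. That of RPL17 ends a few bases before the annotated start, and that of RPS26 begins just after it.
RPS4X, chrX:72277229-72277278, minus strand: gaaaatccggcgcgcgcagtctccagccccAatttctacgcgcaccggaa
RPS26, chr12:56041888-56041937, plus strand: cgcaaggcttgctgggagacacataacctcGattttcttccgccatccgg
RPS15, chr19:1438366-1438415, plus strand: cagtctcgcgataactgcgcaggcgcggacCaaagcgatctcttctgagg
RPL17, chr18:49492446-49492495, minus strand: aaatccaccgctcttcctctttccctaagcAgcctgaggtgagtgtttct

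Position by position, the first base was a pyrimidine at 78.7% of the outermost starts of ribosomal protein genes and at 12.8% of those of other genes, where a purine is the usual first base. It was a C at 73.8% and at 11.1%. Over the next 5 bases the share of pyrimidines stayed between 75.4% and 88.5%, against 52.4% to 57.0%. One base before the start the sets were alike, at 90.2% and 85.7%.

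**Figure D4:**
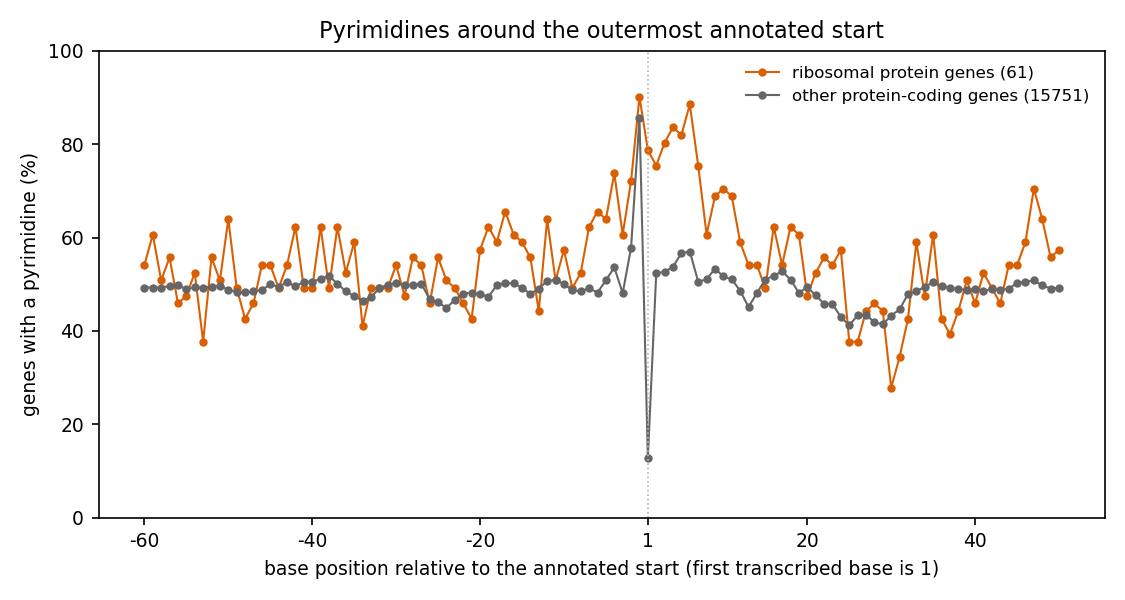
Share of genes, in percent, with a pyrimidine at each base position from 60 before to 50 after the outermost annotated start, for 61 ribosomal protein genes and 15751 other protein-coding genes. At the first transcribed base the shares are 78.7% and 12.8%, and the orange curve stays above the grey one over the next bases.

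A set of 10 motifs was then searched on both strands of the 300 bases from 250 before to 50 after each listed start. A match is a description of the letters, not of binding. The ETS motif CCGGAAG was found at 22 of 61 genes (36.1%, Wilson interval 25.2% to 48.6%), against 16.4% of other genes and 21.8% of other genes with a covered start. At RPL29 and RPL34 it overlapped the pyrimidine run on the opposite strand, which was so at 2 of the 45 ribosomal protein genes with an oligopyrimidine start and at 20 of the 942 other genes with one. Capitals mark that match in the windows of 20 bases before to 20 from the start.
RPL29, chr3:51995876-51995915, minus strand: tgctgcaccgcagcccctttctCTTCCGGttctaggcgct
RPL34, chr4:108620556-108620595, plus strand: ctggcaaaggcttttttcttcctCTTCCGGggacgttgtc

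A CpG-containing palindrome of 10 bases, spelled in capitals in the sequences of this paragraph, was found at 4 of 61 genes (6.56%, Wilson interval 2.58% to 15.7%), against 0.705% of other genes and 1.01% of those with a covered start. In all 4, RPL17, RPL26, RPS6 and RPS19, it began between 41 and 70 bases before a listed start, a window chosen after their positions were seen, in which it began at 27 of the other 15751 genes (0.171%). The 80 bases before the start of these genes are given with the palindrome in capitals to show that shared position.
RPL17, chr18:49492466-49492545, minus strand: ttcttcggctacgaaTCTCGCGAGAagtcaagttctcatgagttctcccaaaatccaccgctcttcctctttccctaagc
RPL26, chr17:8383194-8383273, minus strand: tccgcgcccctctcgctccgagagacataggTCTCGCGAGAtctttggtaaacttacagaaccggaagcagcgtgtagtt
RPS6, chr9:19380237-19380316, minus strand: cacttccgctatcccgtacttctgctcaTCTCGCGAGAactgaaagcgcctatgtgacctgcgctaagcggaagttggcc
RPS19, chr19:41860175-41860254, plus strand: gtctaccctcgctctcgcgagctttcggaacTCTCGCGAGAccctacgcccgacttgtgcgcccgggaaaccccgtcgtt

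The pileups over the starts of these 4 genes, 28.5, 69.5, 54.8 and 81.3 tags in that order, spanned most of the range of the whole set. The SP/KLF motif GGGCGG was found at 35 of 61 genes (57.4%, Wilson interval 44.9% to 69.0%), against 64.3% of other genes, which lies within that interval, and 77.9% of those with a covered start, which lies above it. The median GC content of the 300 bases was 58.7% (interval 56.7% to 61.0%), against 66.0% in other genes with a covered start, and the observed to expected ratio of CpG was 0.914 (interval 0.870 to 0.961), against 0.849. For the other 7 motifs the Wilson interval held both the share of all other genes and that of other genes with a covered start, given here in that order. NFY (CCAAT) was at 21 genes (34.4%, against 42.1% and 40.3%). YY1 (AAGATGGC) was at 6 (9.84%, against 4.65% and 6.03%), in 5 of them with its first base between positions 11 and 28, counted from 1 at the start. Those limits are the lowest and highest positions of these 5 matches, and the share of other genes with a match there was not computed. In the 100 bases before the start, 0.641% of other genes had a YY1 match. The TATA motif TATAAA was at 5 (8.20%, against 12.4% and 6.24%), and the E-box CACGTG at 4 (6.56%, against 10.9% and 11.8%). In the 100 bases before the start TATA was still at 5 (8.20%, Wilson interval 3.55% to 17.8%), against 6.72% and 2.91%. There the share of other genes with a covered start lay below the interval. CRE (TGACGTCA) was at 3 (4.92%, against 2.99% and 3.76%), NRF1 (GCGCATGC) at 3 (4.92%, against 4.89% and 6.41%) and AP-1 (TGANTCA) at 2 (3.28%, against 8.06% and 5.83%). For 6 of the 61 genes none of the 10 motifs was found.

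**Figure D5:**
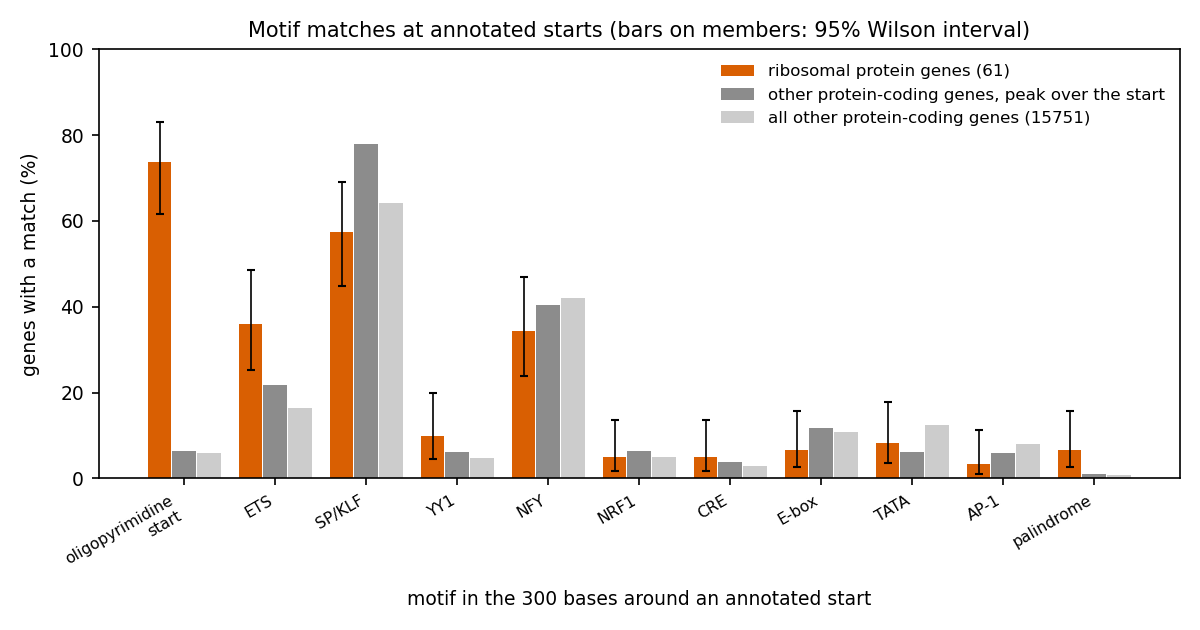
Share of genes, in percent, with a match to each motif in the 300 bases around a listed start, for 61 ribosomal protein genes (orange, with 95% Wilson intervals), other genes with a peak over a start (dark grey) and all 15751 other genes (light grey). The oligopyrimidine start shows the widest gap, at 73.8% against 6.31% and 5.98%.

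A snoRNA gene lay inside 28 of the 76 genes (36.8%, Wilson interval 26.9% to 48.1%), against 2.50% of the other protein-coding genes. RPL3, RPL4, RPL7A, RPL13A and RPL23A were among those with 4, the most in any of the 76. The median pileup was 58.3 tags (interval 45.0 to 67.4) for snoRNA hosts and 52.9 (50.03 to 58.0) for the rest, which overlap. Other genes that hold a snoRNA had a median of 49.7 tags, and 84.9% of them had an end peak.

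Other genes of translation were set beside them. Of 77 mitochondrial ribosomal protein genes, whose products build the separate ribosome of that organelle, 75 (97.4%) had an end peak, with a median of 47.5 tags (interval 43.9 to 51.8), a median fold of 6.26 and a local background of 7.66. Their fold was thus higher than the 5.14 of the cytosolic genes at a lower pileup and background. All 15 elongation and initiation factor genes examined had an end peak, with a median of 57.3 tags. EEF1A1, which delivers aminoacyl-tRNA, had 105 tags and 4 end peaks, and EEF2, which moves the ribosome along, had 32.6 tags. Of 18 genes for ribosome assembly, 17 had one, with a median of 47.9 tags, and BYSL had none. Of 8 paralogs with irregular symbols 7 had one, and the exception was RPL10L, an intronless copy of RPL10 expressed in testis. RPSA and FAU, ribosomal proteins outside the symbol pattern, had 78.6 and 61.5 tags.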

How the data were processed

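One ATAC-seq library of hCMEC/D3 cells was used. Per the file headers, the authors called broad peaks (MACS 2.2.7.1) with no input library, a tag shift of -100 bp, an extension size of 200 bp, 1 tag per position, q limits of 0.05 and 0.1, and an effective genome size of 1870000000 bp, the mouse preset. The pileup signal (tags), the fold ratio over local background and the −log10 q-value of each peak are the authors' deposited values. The local background in tags is not among them. It was computed here as pileup divided by fold, which approximates the background used in peak calling. The −log10 p-value column of the deposited list was read but not used for any result. The library held 31532245 tags, of which 22188172 were kept, and the lowest pileup called was 8.0 tags. The submitters' processing notes name Bowtie2, SAMtools 1.13, Picard and the builds GRCh38 and mm10, without roles. With the RefSeq GRCh38.p14 starts, 65.3% of outermost starts of protein-coding genes were covered by a peak, and 3.00% to 3.98% when starts were moved by 2000 to 50000 bp. How reads with several matches were handled is not given in the sources used here.

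Peaks were placed at gene ends with windows of 1000 bp and an overlap of at least 1 bp, using Python 3.11.15, pandas 2.3.3 and scipy 1.17.1. Other genes were weighted so that each of 10 gene length groups had the members' weight. Shares carry 95% Wilson intervals and medians order-statistic intervals, which cover sampling over genes only. The placement code was tested on simulated peaks. Starts came from a RefSeq promoter table with 22155 starts. Where a gene had several, any one counted. Some genes are not reported by name here. Otherwise the named genes are the 6 highest and 6 lowest in pileup, the 4 widest and 4 narrowest, the 3 highest and 3 lowest folds, those with most end peaks, and textbook members. Genes named for a far-end peak, a shared peak, peak extent, start sequence, motif or snoRNA were chosen after their values were seen. The members and lists were chosen with earlier results of these data known.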

Additional observations from a re-analysis of the deposited data

How the results depend on the processing

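No paired analysis was possible because no result comes from a test, and the replicate numbers of the 2 assays overlap in a single one. Of 93 alternative values, 79 stayed within the 95% interval of the reported value, or within 1.5 times for a mean number of peaks, and 14 moved. With peaks of at least 4-fold only, the share of ribosomal protein genes with an end peak was 84.2%, the share with a covered start 82.0% and the mean number of end peaks 0.908, a filter that leaves fewer peaks. Among other genes the share with an end peak was 73.0% without weighting for length and 65.2% with genes no longer than the longest member, the median width without weighting was 1059 bp and the median fold 5.02. In the 100 bases before the start, a window that is shorter by construction, the share of ribosomal protein genes with a match was 21.3% for ETS, 39.3% for SP/KLF, 19.7% for NFY, 1.64% for the E-box, and 0% for YY1 and for AP-1, where 0 of 61 genes allows up to 4.92% by a limit of 3 counts and up to 5.92% by the Wilson interval. The oligopyrimidine start rose to 91.8% when it could begin within 10 bases of the annotated start. Leaving out chromosomes X or 19, leaving out shared end peaks, adding ribosomal proteins with irregular symbols, taking the widest peak and taking the peak over the start moved no value for the ribosomal protein genes out of these limits. With the peak over the start, however, the median pileup of 50.04 tags lay just above the lower limit of 50.03. Other genes weighted for length had 50.1 tags at that setting, so the higher pileup of the top end peaks was not seen there. Chromosome 19, the outermost start and the peak over the start were chosen after seeing the data. The depth limits what can be said of genes with no peak, whose chromatin was not detectably open.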

Other observations

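Ribosomal protein genes have left many processed copies in the genome, and 1888 annotated pseudogenes carry their symbols. An end peak was called for 207 of them (10.96%, Wilson interval 9.63% to 12.5%), compared with 14.1% of 14570 other pseudogenes. Without the copies annotated as transcribed, the shares were 10.6% and 11.4%, and among transcribed copies they were 34.5% (10 of 29) and 43.4%. Where an end peak was called, the median pileup was 21.5 tags at ribosomal protein pseudogenes and 23.7 at other pseudogenes, against 53.4 at the parent genes. RPL21 had the most copies, 137, of which 15 had an end peak, followed by RPL23A with 95, of which 10 had one, and RPL7A with 80, of which 12 had one.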
